A study of Homo sapiens with 3 samples.

Results

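Short chromatin loops are described here: the loops of at most 50 kb, measured from the first to the last listed base, on the 22 autosomes in a loop list deposited for a Hi-C study of HCT116 cells. They were chosen by chromosome and length alone, and 21994 of the 279618 listed loops with a readable class word (276149 of them autosomal) met that rule. HCT116 is a human colorectal carcinoma line, and Hi-C counts ligation events between pairs of sites after crosslinking, as a measure of contact. All 3 libraries came from the p53-/- form of the line. One was an ORC2 deletion clone (ORC2-/-, made with CRISPR/Cas9), one an ORC2 rescue clone in which ORC2 had been reintroduced from a vector, and one the parental cells, called wild-type. Each group has 1 library, and the deletion and the rescue are each 1 clone, so effects of a clone and of ORC2 cannot be told apart.

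ORC2 belongs to the origin recognition complex. This complex binds the sites where DNA replication can start and loads the replicative helicase there. In Hi-C, contacts between sites close together on a chromosome are the most frequent ones, because neighbouring stretches of a chromatin fibre meet often by chance. Contacts at this range can lie inside a gene or a small domain, whereas the loops anchored by CTCF and cohesin, which organise domains and link promoters with enhancers, often reach further.

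The authors' deposited table gives each loop a left position, a right position and 1 of 3 class words, conserved gain, conserved lost or not conserved, called gained, lost and not conserved here. All positions and class counts below come from the authors' deposited table. The samples that were compared, the caller and the threshold remain not given in the sources used here. A gain therefore has no known direction with respect to ORC2, and not conserved is not taken to mean unchanged. The list has no loop strengths, no depth and no replicate values, so no test between conditions could be made. Shares carry 95% Wilson intervals for counting error alone, as if loops were independent. Neighbouring loops are not, so these intervals are too narrow. Coordinates are those of hg38.

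Gained and lost short loops touched gene starts, and the 30 bases around 4 of these starts are shown so that the places can be found. The sequences are RefSeq promoters of GRCh38.p14, printed 5′ to 3′ along the gene, with the transcript start of the promoter table in capitals. Where RefSeq lists several promoters of a gene, the first listed was used, and that of PRR7 lies inside the annotated gene body rather than at its outer end. The starts of F12 (minus strand, chr5:177409550-177409579) and PRR7 (plus strand, chr5:177446799-177446828) lay at the ends of lost short loops. Those of TMEM132E (plus strand, chr17:34579567-34579596) and TUBA3C (minus strand, chr13:19181810-19181839) lay at the ends of gained ones.
F12: gtcctattgatctggActcctggataggca
PRR7: gcgccccgcgcctccAgcccagcgctcgga
TMEM132E: tgtgtgtctctctcgAgtcatttacggcgg
TUBA3C: gcacggcgggaggctGtcgttgggcgtgcg

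Short loops were concentrated on a few chromosomes. Chromosomes 15, 22, 19 and 17 held 15562 of them, or 70.8%, but 22.9% of all listed autosomal loops. On chromosome 15, 5647 of 15784 listed loops were short, a share of 35.8% (35.0 to 36.5%). The share was 33.7% (32.8 to 34.5%) on chromosome 22, with 4259 short loops, and 22.5% (21.8 to 23.2%) on chromosome 19, with 3115. Chromosome 17 had 2541 short loops, or 12.2% (11.8 to 12.6%) of those listed there. At the other end, chromosomes 2, 4, 5 and 7 had 208 short loops between them. On chromosome 4 only 4 of 8445 listed loops were short, a share of 0.0474%, and on chromosome 2 the number was 50 of 18867, a share of 0.265%. The share therefore differed between chromosomes far beyond the counting error of each.

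**Figure D1:**
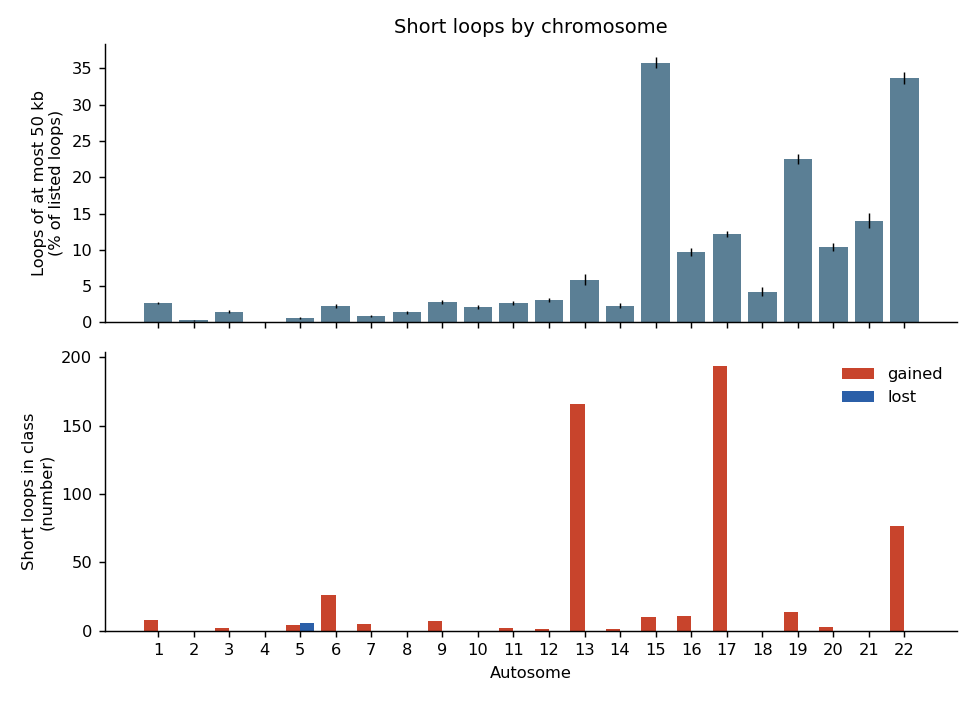
Top, loops of at most 50 kb as a percentage of the listed loops on each autosome, with 95% Wilson intervals as lines. Bottom, the number of short loops classed gained and lost on each autosome. Chromosomes 15 and 22 stand above the rest in the upper panel (35.8% and 33.7%), and chromosomes 17 and 13 in the lower one (194 and 166 gained loops).

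Within those chromosomes the short loops lay in a few stretches. Loops less than 500 kb apart were joined along the chromosome, which gave 221 stretches, and the 10 largest held 14256 loops, or 64.8%. The largest ran from 23739901 to 28031230 on chromosome 15 and held 3881 short loops over 4.29 Mb. It includes GABRA5 and GABRG3, which encode subunits of the GABA-A receptor for the inhibitory transmitter GABA. It also includes most of OCA2, a pigmentation gene, and ATP10A, a phospholipid flippase gene. The next, on chromosome 22 at 32585693 to 34985161, held 2919 short loops and contains most of SYN3, encoding a synapsin of nerve terminals, and TIMP3, encoding an inhibitor of matrix metalloproteinases. A stretch of 1642 short loops on chromosome 17 (33143186 to 34829293) holds TMEM132E, which encodes a membrane protein with a role in hearing, and most of the body of ASIC2, an acid-sensing ion channel gene. Chromosome 15 had another at 46173688 to 48101192, with 1215 short loops and a single protein-coding gene, SEMA6D, which encodes an axon guidance semaphorin.

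Stretches of 2 kinds carried most short loops, one with few genes and one with many. The division at 10 protein-coding genes per Mb was chosen after the values were seen, among the 35 stretches with at least 100 short loops. In 22 stretches with fewer genes than that, at a median of 1.67 genes per Mb, lay 15672 short loops, or 71.3% of all. There, 44.5 to 77.3% of the listed loops inside a stretch were short, with a median of 61.0%. The other 13 stretches had a median of 39.0 genes per Mb and held 3306 short loops, or 15.03%. In these a median of 19.0% of the listed loops were short, although the range of 9.71 to 74.5% overlapped that of the gene-poor stretches. The largest gene-rich ones lay near the ends of chromosome arms, on chromosome 19 at 578970 to 4444626, with 808 short loops and 133 genes, and on chromosome 16 at 61040 to 3050749, with 442 short loops and 144 genes.

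At finer scale the short loops formed local blocks. A block joins loops whose left ends and whose right ends both lie within 10 kb of those of another loop. There were 1346 blocks with a median of 4 loops, and 358 of them held a single loop. The 48 fullest blocks held 50% of the short loops, and the 362 blocks of at least 10 loops held 19018, or 86.5%. The median step between neighbouring left ends was 4748 bp (steps under 10000 bp), and 3859 of the 5608 distinct left ends lay 1 base after a listed right end, so that the positions tile the chromosome. This allows a block to be compared with the pairs that its own left and right ends could form between 6.28 kb, the shortest short loop, and 50 kb. In the 362 blocks a median of 66.7% of such pairs was listed, with a range of 30.3 to 100%. In 6 of them every pair was listed. Most short loops thus lay in blocks of neighbouring loops, and 358 stood alone in a block. The share of pairs listed is raised by construction. Only ends that a block already uses enter it, and blocks join neighbouring loops.

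Among the 10 fullest blocks, one of 501 loops lay on chromosome 15 at 27310156 to 27655020. It held 83.5% of its 600 possible pairs and ran from GABRG3 into the region after it. ASIC2 had a block of 374 loops at 33776086 to 34051332 and one of 373 loops at 33192577 to 33472626 on chromosome 17. On chromosome 22, neighbouring blocks of 346 and 331 loops (34308629 to 34543590 and 34111569 to 34341354) had no protein-coding gene at any loop end. SEMA6D had one of 308 loops on chromosome 15 at 47388571 to 47602926, with 84.2% of its possible pairs. None of the 10 fullest blocks held a lost loop, and 9 of the 10 held no gained loop. Of all 1346 blocks 5.13% held a gained loop, but their median size was 4 loops, so that share is no like measure. By loops, 4 of the 4456 in the 10 fullest blocks were gained, against 2.41% of all short loops. A count of 0 among the 501 loops of the GABRG3 block allows a gained share of up to 0.599%, taken as 3 loops of 501. That limit holds only for independent loops. These 501 share 66 left and 69 right ends in 1 place, so the limit is too low. Among the 10 fullest blocks, the exception was the ASIC2 block of 373 loops, with 4 gained.

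Many blocks lay within 1 gene. Among the 799 blocks of at least 3 loops, 190 (23.8%) had both ends of every loop at one and the same protein-coding gene, and 151 of these lay wholly inside the gene body. They held 5003 short loops over 93 genes. After those in ASIC2 and SEMA6D named above, full single-gene blocks lay in OCA2 (177 loops), GABRG3 (152 loops), ASIC2 again (140 loops) and UBR4 (138 loops). UBR4 encodes a very large ubiquitin ligase, and its block on chromosome 1 at 19108410 to 19207406 held all of its possible pairs. A further 253 blocks of at least 3 loops (31.7%), with 6737 short loops, had no protein-coding gene at any end. A gained loop was present in 13 of the 190 single-gene blocks (6.84%) and in 37 of the 609 others (6.08%), against 6.26% of all 799.

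**Figure D2:**
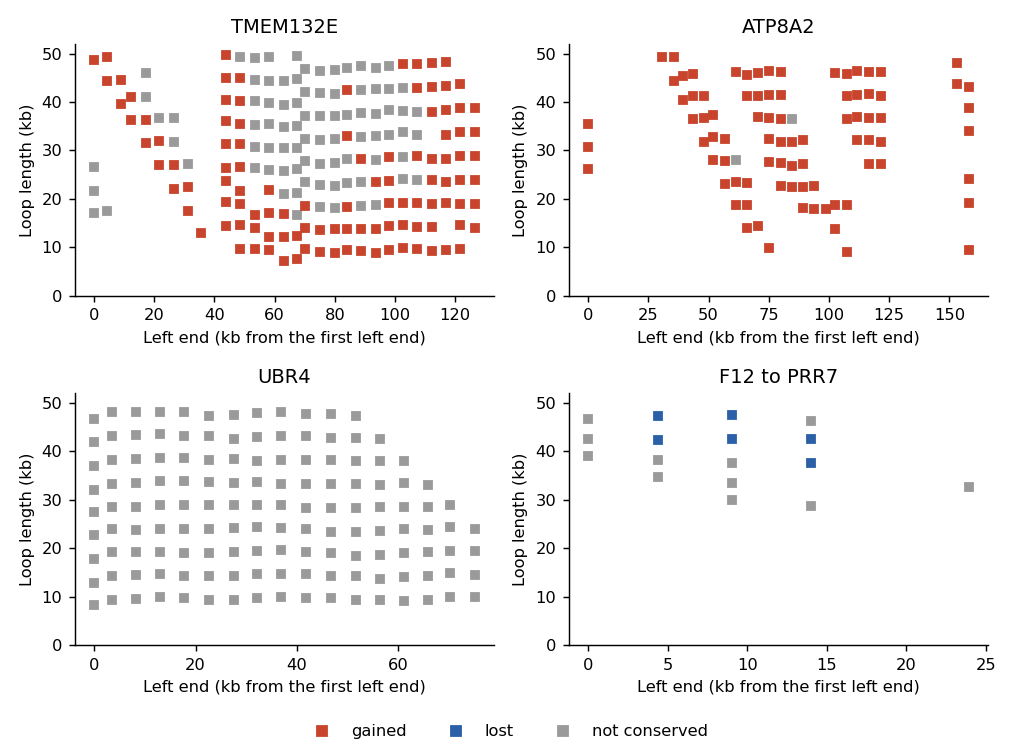
Each square is a short loop, placed by its left end in kb from the first left end (x axis) and by its length in kb (y axis), with colours for the authors' classes. Shown are all short loops inside the spans of the TMEM132E block, of the short loops at ATP8A2, of the UBR4 block and of the block from F12 to PRR7. All 138 pairs of the UBR4 block are filled and not conserved, 84 of 86 loops at ATP8A2 are gained, and the 6 lost loops stand side by side in the last panel.

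Both ends of a short loop fell in one and the same protein-coding gene for 8829 loops, or 40.1% (39.5 to 40.8%). This share was 20.5% (20.1 to 21.0%) among the 26123 loops over 50 kb and up to 100 kb and 7.05% among all 254155 longer loops, and it depends on length by construction. A gene at either end or both was found in 59.4% (58.7 to 60.0%) of short loops, against 76.2% (75.7 to 76.8%) at 50 to 100 kb and 78.3% (78.1 to 78.4%) over 50 kb. These intervals were apart. A gene at both ends went the other way over 50 kb. It was found in 51.0% (50.4 to 51.7%) of short loops, 49.9% (49.3 to 50.5%) at 50 to 100 kb and 34.7% over 50 kb. The intervals for short loops and for 50 to 100 kb overlapped. Neither share alone therefore tells whether short loops lie away from genes. Blocks of at least 3 loops with no gene at any end held 30.6% of the short loops.

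In all, 1282 protein-coding genes had a short loop at an end, which is 13.1% of the 9754 genes at any listed autosomal loop end. The 10 genes with most short loops were long. ASIC2 had 1128 short loops among 2190 listed loops of any length, with a gene body of 1144 kb. GABRG3 had 774 short loops of 1302 (571 kb body), SEMA6D 662 of 1004 (590 kb) and SYN3 524 of 1202 (551 kb). Others were OCA2 with 392 short loops, TAFA5, a gene for a secreted brain protein, with 260, ATP10A with 224 and TSHZ3, a zinc finger homeobox gene, with 216. The gene bodies of all 10 had a median of 465 kb, against 12.97 kb for all 1282 genes at short loop ends. They took part in 5653 short loops, or 25.7%, of which 7 were gained, 4 at ASIC2 and 3 at SYN3.

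**Figure D3:**
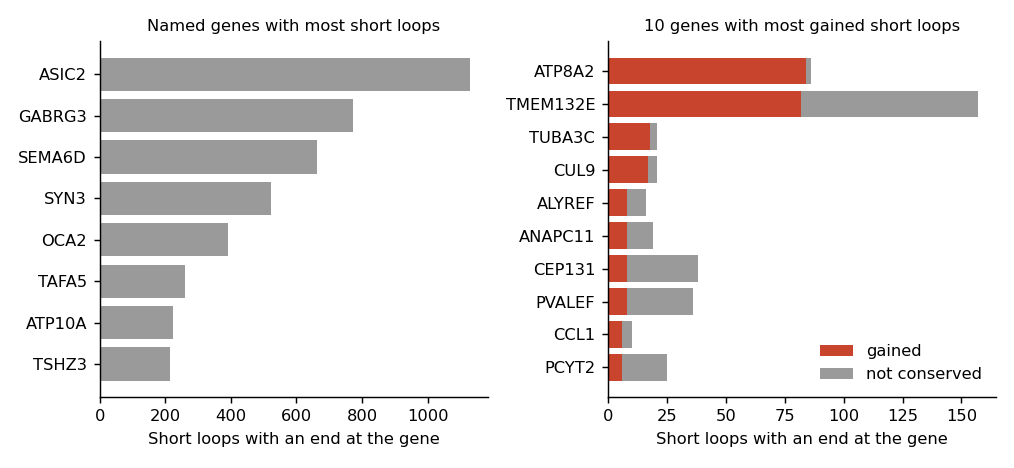
Bars give the number of short loops with an end at a gene, split into gained and not conserved. Left, genes among the 10 with most short loops that are named in the text, with ASIC2 (1128) and GABRG3 (774) at the top. Right, the 10 genes with most gained short loops, led by ATP8A2 (84 of 86) and TMEM132E (82 of 157).

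The class words divided the short loops very unevenly. The authors' deposited table classed 531 short loops as gained, 6 as lost and 21457 as not conserved. The gained share was 2.41% (2.22 to 2.63%) among short loops, against 1.95% (1.896 to 2.003%) among loops over 50 kb and a background of 1.99% over all listed autosomal loops. The lost share was 0.0273% (0.0125 to 0.0595%) among short loops, against 0.182% (0.166 to 0.200%) over 50 kb and a background of 0.17% over all listed autosomal loops. The gained share rested on few places. The 10 windows of 500 kb with most gained short loops held 426 of the 531, or 80.2%. Without these windows 105 of 20478 short loops were gained, or 0.513% (0.424 to 0.620%), against 1.87% (1.82 to 1.93%) of the longer loops outside the same windows. These windows were picked for their gained short loops, so that leaving them out lowers the short share by construction.

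Gained shares changed little with length inside the short range. They were 2.41% (1.81 to 3.21%) up to 10 kb, 2.34% at 10 to 20 kb, 2.09% at 20 to 30 kb, 2.55% at 30 to 40 kb and 2.66% (2.26 to 3.13%) at 40 to 50 kb, with intervals that overlapped throughout. At 50 to 100 kb the share was 1.63% (1.48 to 1.79%). Lost loops were all in the upper part of the range. They all came from 1 block on chromosome 5, whose shortest loop of any class measured 28.6 kb. The lost shares by length therefore describe 1 place and not a trend with length. No loop of up to 30 kb was lost, and for the 0 of 5221 at 20 to 30 kb the Wilson interval reaches 0.0735%. At 30 to 40 kb 1 of 5578 loops was lost, and at 40 to 50 kb 5 of 5224, a share of 0.0957% (0.0409 to 0.224%). The longest short loop measured 49989 bp and the shortest loop beyond the limit 50001 bp, and both were not conserved.

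**Figure D4:**
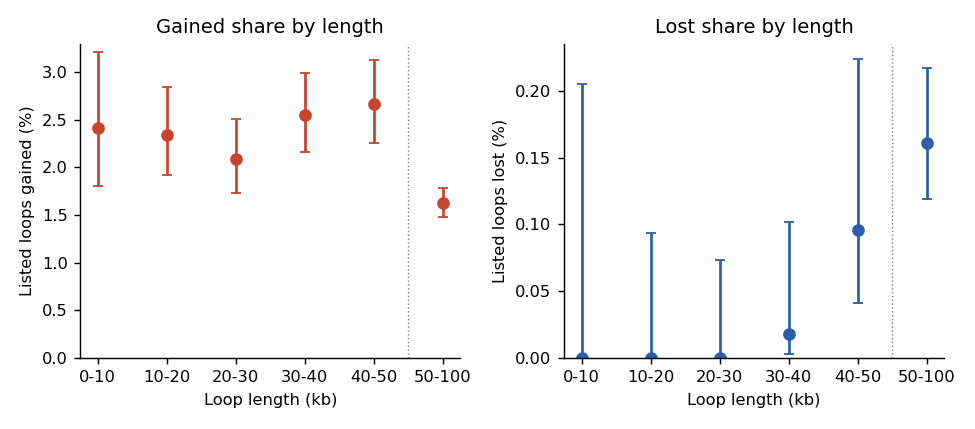
Percentage of listed autosomal loops classed gained (left) and lost (right) by loop length in kb, with 95% Wilson intervals. The dotted line marks the 50 kb limit. Gained shares lie between 2.09 and 2.66% below the limit and at 1.63% in the bin above it, while lost loops appear only in the bins over 30 kb. All lost loops below the limit come from 1 block on chromosome 5.

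By chromosome, gained short loops lay mainly on 17 (194 loops), 13 (166) and 22 (77), which together held 82.3% of them but 32.0% of the short loops. On chromosome 13, 166 of 237 short loops were gained, or 70.0% (63.9 to 75.5%), against 5.04% of the longer loops there. Chromosome 17 had a gained share of 7.63% (6.67 to 8.73%) among short loops, against 2.61% among longer ones. On 15 of the 22 autosomes the gained share was lower among short than among longer loops, and on 7 it was higher. These counts leave out the intervals. Among the 15, the short interval contained the longer share on chromosomes 1, 2, 3, 4, 8, 11, 14 and 19. Among the 7, it did so on chromosome 9. Chromosome 15, with most short loops, had 10 gained, or 0.177% (0.0962 to 0.326%), against 1.20% of its longer loops. Chromosomes 2, 4, 8, 10, 18 and 21 had no gained short loop. For the 0 of 580 on chromosome 21 the Wilson interval reaches 0.658%.

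Gained short loops lay in 69 of the 1346 local blocks (5.13%). In 27 of the 69 every loop was gained, but only 9 of those 27 had at least 3 loops. Blocks with at least 50% of their loops gained held 419 of the 531 gained short loops, or 78.9%. Joined on their own, the gained loops formed 81 blocks, of which 32 were single loops, and the 10 fullest held 322 loops, or 60.6%.

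**Figure D5:**
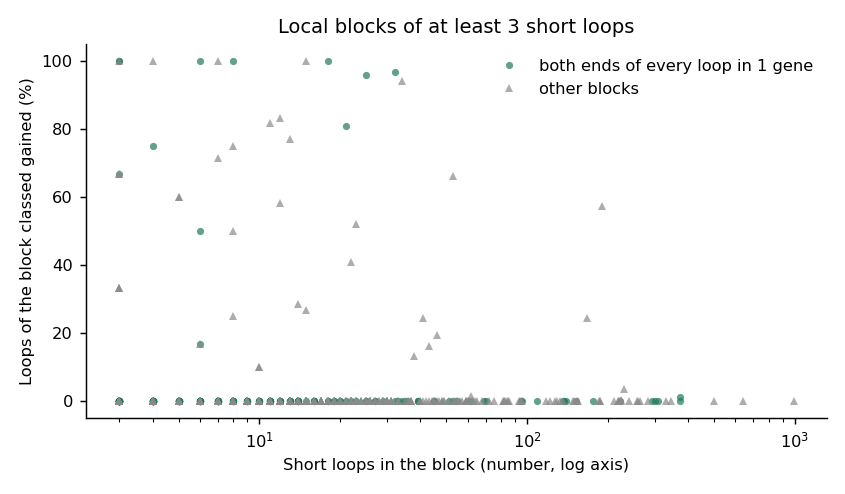
Each point is 1 of the 799 local blocks of at least 3 short loops, placed by its number of loops (log axis) and by the percentage of them classed gained. Circles are the 190 blocks with both ends of every loop in 1 gene and triangles the 609 others. Most blocks lie at 0, 50 hold a gained loop, and 30 have at least 50% gained.

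The fullest gained block lay over TMEM132E on chromosome 17 at 34514726 to 34680046. Of the 190 short loops of any class in its local block, 109 were gained. Their median length was 22.4 kb, against 35.3 kb for the 81 that were not conserved. By length, all 17 loops up to 10 kb and 34 of 39 at 10 to 20 kb were gained, against 22 of 42 at 20 to 30 kb, 17 of 48 at 30 to 40 kb and 19 of 44 at 40 to 50 kb. Beyond it a block of 15 loops without a gene at its ends (34650981 to 34708424) was gained throughout. ASIC2, in the same stretch of chromosome 17, had 4 gained of 1128 short loops.

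On chromosome 13, ATP8A2, which encodes a phospholipid flippase, had 84 of 86 short loops gained. Most fell into gained blocks of 31, 24, 18 and 8 loops between 25690507 and 25861003, all inside the gene body and away from the gene start at 25371974. The short loops of ASIC2 and of ATP8A2 thus both lay within long gene bodies, but mostly in different classes. Also on chromosome 13, 35 of 53 loops were gained in a block at 19120798 to 19200289, over the alpha-tubulin gene TUBA3C, with 18 of 21 short loops at the gene itself gained. Because near-identical copies of TUBA3C exist, these contacts are uncertain. Another 12 of 23 loops were gained at 18948171 to 18990735. In a further block 10 of 13 loops were gained, at 37475094 to 37526431. Both blocks had no protein-coding gene at their gained ends.

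Most of the 77 gained short loops of chromosome 22 lay in 2 blocks at the right border of the gene-poor stretch that holds TIMP3. In the block at 34797183 to 34956906, which has no protein-coding gene at any end, 41 of 167 loops were gained, and all 41 started at or past 34861197. In the next block, at 34929593 to 34985161, 32 of 34 were gained. The blocks of 346 and 331 loops to the left of these had none. The 126 loops of the mixed block that were not conserved reached 34938904 on the right, so that the classes overlapped in position.

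Gained short loops also lay at genes outside the gained blocks described above. CUL9 on chromosome 6, which encodes a cullin that binds p53, had 17 of 21 short loops gained, in a block at 43187015 to 43228234 that reached DNPH1, a nucleotide hydrolase gene. Near the end of chromosome 17, the gene-rich stretch at 81047130 to 82415819 had 21 gained of 278 short loops. Among its genes, 8 short loops each were gained at CEP131, a centrosomal protein gene (of 38), at PVALEF (of 36), at ANAPC11, a subunit gene of the anaphase-promoting complex (of 19), and at ALYREF, an mRNA export factor gene (of 16). A further 6 of 25 were gained at PCYT2, an enzyme gene of phosphatidylethanolamine synthesis. These genes are neighbours, and a loop can count at more than one of them. SHISA6, a gene for an auxiliary protein of AMPA receptors, had 6 of 48 gained. CCL1, a chemokine gene in the stretch of chromosome 17 that holds TMEM132E, had 6 of 10. In total 53 genes, or 4.13% of those at short loop ends, had a gained short loop, and 6 of the 348 genes with at least 10 short loops had at least 50% gained.

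All 6 lost short loops lay on chromosome 5, in 1 block. They were 37.7 to 47.5 kb long and joined 3 left ends, at 177403603, 177408294 and 177413232, to 3 right ends, at 177445919, 177450919 and 177455834. The left ends of 4 of them lay at F12, the gene of coagulation factor XII. Their right ends lay at PRR7, a proline-rich synaptic protein gene, in 5 cases and at GRK6, a kinase gene of G protein-coupled receptors, in 1. The local block of any class held 17 short loops over 60.3 kb, so that 11 of its loops were not conserved. The shortest loop of the block measured 28.6 kb. All 6 shared an end with a longer lost loop, and none with a longer gained loop. Among the 1282 genes at short loop ends, these 3 (0.234%) were the ones with a lost short loop.

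Gained short loops often shared an end with gained loops of greater length. The same left or the same right position was used by a gained loop over 50 kb for 326 of 531 gained short loops, or 61.4% (57.2 to 65.4%), against 589 of 21457 that were not conserved, or 2.75% (2.53 to 2.97%). A longer loop of any class shared an end with 88.1% (85.1 to 90.6%) of gained short loops and with 90.9% (90.5 to 91.3%) of those not conserved. Lost loops over 50 kb shared an end with 104 gained short loops, or 19.6% (16.4 to 23.2%), against 1.21% (1.07 to 1.36%) of those not conserved. How much of this follows from the crowding of gained loops in few places was not tested.

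Gene starts at short loop ends were looked at in the RefSeq promoters, which run from 250 bases before a gene start to 50 after it. A start lay in the end of a short loop for 582 of the 15100 autosomal protein-coding genes matched by symbol, with 1 promoter each. Their median GC content was 67.2%, against 63.0% over all 15100, and their median number of CG pairs was 27 against 22. For the 4469 gene starts at ends of loops over 50 kb, these medians were 64.3% and 23. GATC, the site of the enzyme DpnII that cut the chromatin, reads the same on both strands. It was present in 37.3% of the 582 promoters, against 39.1% of the 4469 and 39.5% of all. At gained short loop ends lay 18 gene starts, TMEM132E and TUBA3C among them, 9 with a GATC. At lost ends lay 2, those of F12, with a GATC, and PRR7, without.

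Short loops lay at 4 of the DNA replication genes looked at and not at ORC2. ORC2 (chromosome 2, 200908977 to 200963660) had 77 listed loops and none of them was short, and the nearest short loop lay 18.1 Mb away. Only 50 of the 18867 listed loops of chromosome 2 were short (0.265%), so the absence of short loops at ORC2 is near that background. Of 17 listed genes for ORC subunits and licensing factors, 9 had a listed loop end and 2 a short one, the helicase subunit gene MCM7 (13 loops) and the helicase loader gene CDC6 (1 loop). Among replisome and origin firing genes 2 of 11 with listed ends had short loops, POLE, the leading-strand polymerase gene (70), and RECQL4, a helicase gene (14). None of these short loops was gained or lost, classes that held 2.41% and 0.0273% of all short loops, and the count of 0 is near that background. The share of genes with a short loop was 13.1% over all genes with a listed end.

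Of the other lists, neuronal and synaptic genes had short loops at 4 of 14 members with listed ends, among them ASIC2, the adhesion gene DSCAM (212 loops) and the potassium channel gene KCNQ1 (2 loops), with gained loops at ASIC2 alone. Long genes of common fragile sites had them at 2 of 14, MACROD2 (9 loops) and AUTS2 (8 loops, 1 of them gained). Cohesin, CTCF and condensin genes had them at 1 of 7, NCAPD2 (4 loops), and Polycomb and heterochromatin genes at 2 of 9, EHMT2 (23 loops) and RING1 (5 loops). HOX genes had none at 37 members with listed ends, and intestinal and epithelial genes none at 14. No replication-dependent histone gene of the list had a listed loop end at all. None of these members had a lost short loop. Over all genes with a listed end 13.1% had a short loop, and no list was tested against that share. Among all genes at short loop ends 4.13% had a gained short loop and 0.234% a lost one. The absence of lost loops in these lists is near that background.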

How the data were processed

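Hi-C was performed on 3 HCT116 p53-/- libraries (ORC2 deletion, ORC2 rescue, wild-type), cut with DpnII per the labels' protocols. The submitters' processing notes name Bowtie, hg19 and hg38 without roles. Loop caller, normalization and thresholds remain not given in the sources used here. Per the file itself, the authors' deposited list holds positions and a class word, and hg38 is taken from its name. Of 279669 rows, 49 without a class word and 2 repeated ones were dropped. The 6 compartment columns, named S1 to S3, could not be tied to a sample label and were not used, so compartments are not reported. Loop ends were read as 5 kb inward, and genes are protein-coding bodies of RefSeq GRCh38.p14, without exons. Exon, intron or UTR positions were not determined. Members, gene lists and naming rules were chosen with earlier results of these data known. Named were the 10 fullest blocks (any class, gained, single-gene), the 10 genes with most short and most gained loops, genes with lost loops and members of fixed lists. Genes tied for the last place were named too, and a few items that fit the rule are left out here. Joining and gene lookup were tested on simulated data. Tools were Python 3.11.15, pandas 2.3.3 and scipy 1.17.1.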

Additional observations from a re-analysis of the deposited data

How the results depend on the processing

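Of 82 alternatives, all planned, 56 kept a share inside the main Wilson interval, or a count to 1.5 times the main one, and 26 did not. With a limit of 25 kb there were 8542 short loops, of which 2.21% were gained in 35 blocks and 0% lost, and both ends lay in 1 gene for 48.2% of all and 43.9% of gained ones. With a limit of 100 kb there were 48117, with 1.99% gained in 171 blocks, 0.0998% lost, and 29.5% and 28.6% in 1 gene. Adding chromosome X moved nothing past these limits. The gained share was 1.68% without chromosome 13, 3.19% without 15, 1.73% without 17 and 2.74% without 19, and the lost share 0% without chromosome 5. Leaving out any other chromosome kept both within their intervals. Counting each block once gave a gained share of 3.43%. It was 0.513% without the 10 windows with most gained and 3.42% without the 10 with most short loops. The share in 1 gene was 45.1% with ends of 10 kb, 35.6% with the listed base alone, 41.6% without the windows with most gained loops and 50.5% with all annotated genes. Among gained loops it was 37.9% with ends of 10 kb and 52.4% with all annotated genes, where it exceeds the share of all short loops. Other settings that change which loops or genes enter do so by construction, and further causes were not tested. No paired analysis was possible because no group has more than 1 library. With no depth given, what depth limits in the classes is not known.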

Other observations

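Chromosome X, outside the set described, had 380 loops of at most 50 kb among 3469 listed, and none of them was gained or lost.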
